A study of Saccharomyces cerevisiae with 17 samples.

Results

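The comparison set *Saccharomyces cerevisiae* cells lacking both Isw2 and Rpd3 against cells lacking Rpd3 alone, and it asked which genes need Isw2 once Rpd3 is gone. Its members were all genes with a value in both strains. The deposited table lists 6648 genes, of which 6399 had a value in both columns. Of these, 6214 had a mean abundance over both columns of at least 1 FPKM (sequenced fragments of a gene, divided by its length and by all mapped fragments) and were counted, and 185 lay below that level. A further 75 genes had a value in only 1 of the columns, 38 in the double deletion and 37 in the *rpd3* deletion, and 174 had none in either.

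The series holds 17 labelled RNA-seq samples in 10 groups, deposited as 15 columns of abundance. The *isw2 rpd3* double deletion and the *rpd3* deletion were each a single isolate with 1 column, neither carried the Chd1-Ume6 fusion that other strains of the series carry, and both were of the W303 background. The labels give the double deletion as a W303 prototroph, a strain that makes its own amino acids and bases, and do not say so of the *rpd3* deletion. Loss of Isw2 and prototrophy therefore cannot be told apart in this comparison. The *isw2* deletion and wild type, also W303 without the fusion, had 1 column each for the 2 labelled isolates of each. Cells were taken in growth, at an optical density between 0.4 and 0.6, and the medium is not given in the sources used here. Ribosomal RNA was removed from phenol-extracted, DNase-treated RNA, and the libraries kept the strand. Total RNA of a culture was measured, so fewer cells expressing a gene and less RNA per cell cannot be told apart.

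Isw2 is an ATP-dependent remodeler of the ISWI family. With its partner Itc1 it slides nucleosomes towards promoters and helps to keep genes off. Rpd3 is the histone deacetylase of the Sin3 complexes. The repressor Ume6 binds URS1, an element upstream of early meiotic genes and of some metabolic genes, and recruits Sin3-Rpd3 and Isw2 there. In budding yeast these routes are known to act in parallel at early meiotic genes.

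The deleted genes were read first. *ISW2* stood at 28.0 FPKM in wild type, 0.00613 in *isw2*, 21.7 in *rpd3* and 0.0818 in the double deletion. *RPD3* stood at 50.5, 47.0, 0.0479 and 0.110 FPKM in the same order. Both genes were thus near 0 where the labels say they were deleted and well above it elsewhere. Markers of mating type were mixed. *MFA1*, an a-factor gene, was at 19.4 FPKM or more in all 4 columns. *STE3*, the a-factor receptor of alpha cells, was at 0.0439 FPKM without Rpd3 and 0.101 without both proteins. Over wild type and *isw2*, all 4 genes of the alpha-specific list, *STE3* among them, had a mean of at least 1 FPKM. Of these 4, 1 was at least 2-fold higher in *isw2* than in wild type. *SAG1* and *MF(ALPHA)2*, also alpha-specific genes, were not near 0. *SAG1* stood at 15.5 FPKM in wild type, 14.9 in *isw2*, 19.9 in *rpd3* and 13.0 in the double deletion. *MF(ALPHA)2* was at 8.67, 6.17, 4.78 and 8.53 FPKM in the same order.

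At a difference of at least 2-fold in FPKM + 1, 156 of the 6214 genes were higher in the double deletion (2.51%) and 162 were lower (2.61%, with *ISW2* among them), which made 318 genes apart in either direction (5.12%). Past 4-fold, 34 were higher and 16 lower. With 1 column a side these counts have no test of their own. Columns with the same label differed at least 2-fold at 3.65% to 10.4% of genes in the 5 groups that had a pair of columns, and at 6.61% and 6.90% in the *rrp6* groups, whose pairs come from 1 table. The share of genes apart in the double deletion lay within that range, so a 2-fold difference of a single gene is not by itself larger than the spread between columns.

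**Figure D1:**
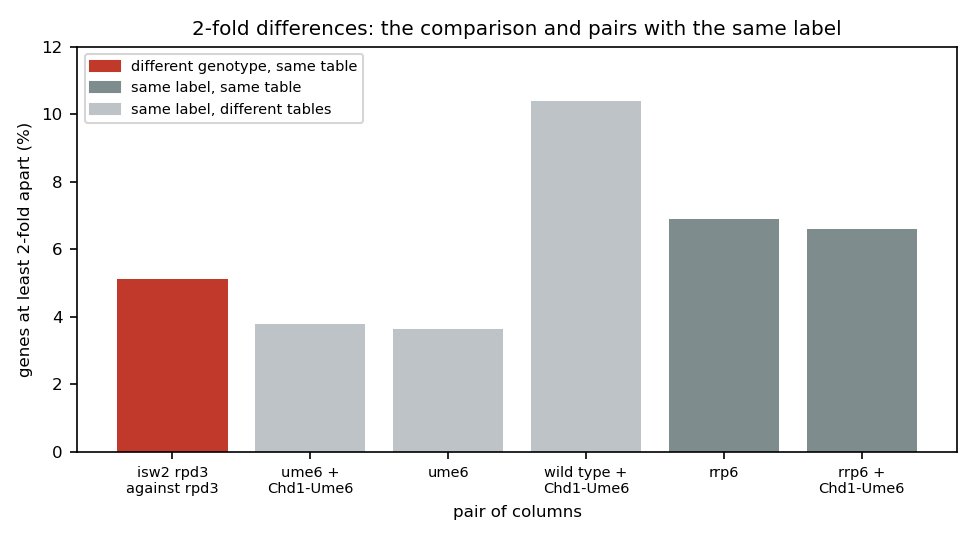
Percentage of genes at least 2-fold apart (vertical axis) for the double deletion against *rpd3* (red bar) and for 5 pairs of columns that share a label (grey bars, darker where both columns come from 1 table). The red bar, at 5.12%, lies between the lowest and the highest grey bars, at 3.65% and 10.4%.

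limma was therefore fitted to log2(FPKM + 1) over all 15 columns and 10 groups, so that the groups with a pair of columns supply the spread that the *rpd3* and double deletion columns are assumed to share. Of 6241 genes fitted, 26 passed a Benjamini-Hochberg adjusted p of 0.05 (0.417%), 19 higher and 7 lower in the double deletion. Nothing in the labels says that numbered isolates were grown separately, so these p-values measure a spread that may be technical. Quantile normalisation of the columns left 6 of the 26 calls, which were *HIS3*, *YOR203W*, *LEU1*, *BSC1*, *PRM7* and *ISW2*. The first 5 of these were called under each of the 17 other settings tried. The least stable calls were *SSA3*, *HED1*, *BNA4*, *BAT1*, *GPD2* and *MEK1*, each called in 6 of the 17, *SSA4* in 5 and *YOR389W* in 2. Below, "rose" and "fell" are used of the 26 genes alone, and all differences are double deletion minus *rpd3* in log2(FPKM + 1).

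The whole distribution was shifted a little. The median difference over the 6214 genes was 0.14, and 3824 of them were above 0. Genes with a mean abundance of 200 FPKM or more had a median of -0.21, while those between 10 and 50 FPKM had a median of 0.21. The FPKM of the double deletion summed to 920280 over all genes and that of *rpd3* to 1071548, within the 889031 to 1132648 of all columns. Depth per library is unknown, since FPKM values carry no counts.

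**Figure D2:**
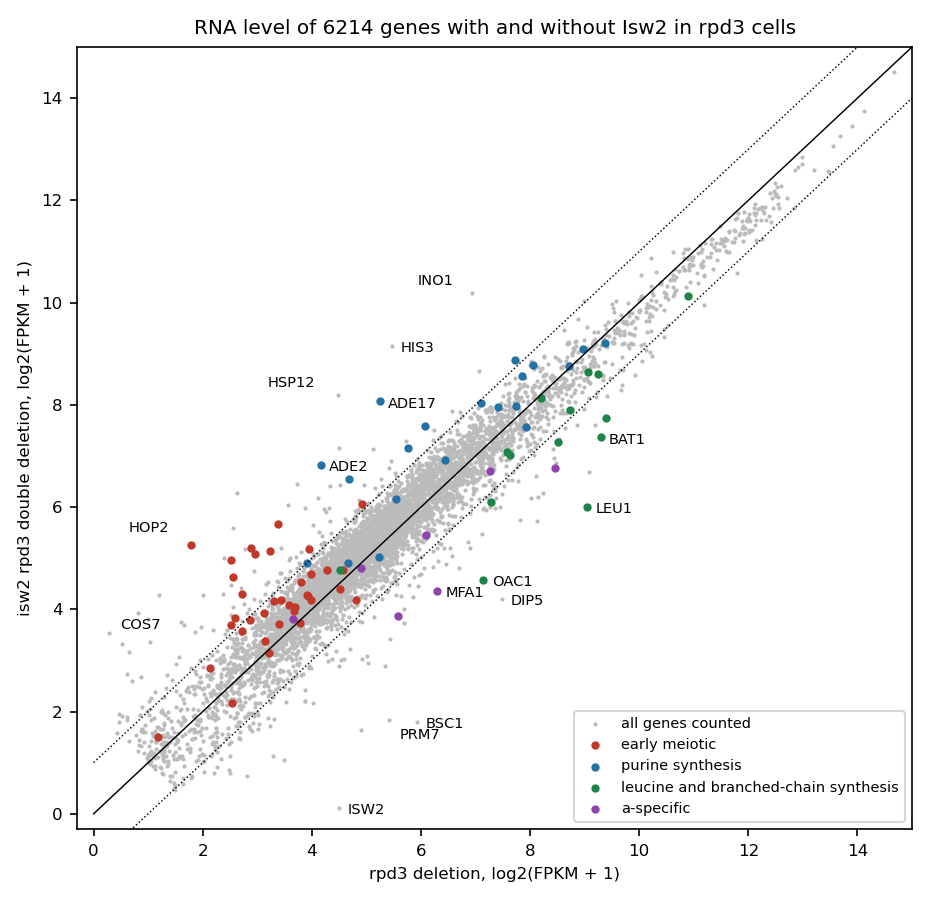
Level of each of the 6214 genes in *rpd3* (horizontal axis) and in the double deletion (vertical axis), both in log2(FPKM + 1), with 4 gene lists in colour. The solid line marks equal levels and the dotted lines 2-fold differences. Purine and early meiotic genes lie mostly above the line, and leucine and a-specific genes mostly below it.

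Early meiotic genes stood higher in the double deletion. These are genes that haploid cells keep off in growth and that the Ume6 repressor controls at entry into meiosis. Of 36 counted genes of this list, 12 were at least 2-fold higher and none at least 2-fold lower, and 31 lay above 0. The median difference was 0.72 beside 0.14 over all genes, and 0.57 beside 0.02 after quantile normalisation. Between columns that share a label the same median had a standard deviation of 0.14. limma called 3 of the 36, *HOP2*, *HED1* and *MEK1*. None of these 3 was called after quantile normalisation.

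*HOP2*, which helps homologous chromosomes to pair, stood at 0.879 FPKM in wild type, 7.60 in *isw2*, 2.44 in *rpd3* and 37.3 in the double deletion. It rose by 3.48 ± 0.40 (SE; limma adjusted p = 0.0137). *MEK1*, a kinase of the meiotic recombination checkpoint, was at 3.19, 3.62, 4.72 and 30.4 FPKM in the same order. It rose by 2.46 ± 0.38 (SE; limma adjusted p = 0.0453), and the double deletion was the single high column of the 4. *HED1*, a meiosis-specific gene, was at 0.355 FPKM in wild type, 0.347 in *isw2*, 4.88 in *rpd3* and 23.9 in the double deletion. It rose by 2.08 ± 0.30 (SE; limma adjusted p = 0.0354) and was thus near 0 in both strains that have Rpd3.

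Other genes of the early meiotic list had the double deletion highest without passing the test. *DMC1*, the meiotic recombinase, stood at 5.50 FPKM in wild type, 2.31 in *isw2*, 6.40 in *rpd3* and 35.6 in the double deletion (difference 2.31, limma adjusted p = 0.166). *RNP1*, an RNA-binding protein gene, was at 1.41, 6.42, 9.36 and 50.1 FPKM (difference 2.30, limma adjusted p = 0.237). *REC104*, needed for meiotic double-strand breaks, was at 3.51, 6.13, 6.76 and 32.7 FPKM. *SAE3*, a partner of Dmc1, was at 0.498, 2.50, 8.42 and 34.2 FPKM, and *SRT1*, a prenyltransferase gene, at 0.785, 0.678, 5.60 and 18.8. In each of these 5 genes *rpd3* lay above wild type and the double deletion lay above *rpd3*. The remaining members apart by 2-fold, *MSH5*, *MND1*, *SPO13* and *RIM4*, differed by 1.15 to 1.25. Not all of the list moved alike: *ZIP1*, of the synaptonemal complex, differed by 0.20, *REC8*, the meiotic cohesin, by 0.32, and *IME4*, the mRNA methyltransferase, by -0.63.

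Genes outside the meiotic list also had the double deletion highest. *YDR374C*, named *PHO92* in the RefSeq annotation and a reader of methylated mRNA in meiosis, was at 0.918 FPKM in wild type, 6.09 in *isw2*, 4.88 in *rpd3* and 47.4 in the double deletion, and it rose by 3.04 ± 0.35 (SE; limma adjusted p = 0.0134). *INO1*, which makes inositol phosphate and is a known metabolic target of Ume6, stood at 14.9, 30.6, 121 and 1165 FPKM. Its difference of 3.26 did not pass the test (limma adjusted p = 0.146). In the *ume6* deletion of the same table *INO1* was at 2390 FPKM, *YDR374C* at 103 and *HOP2* at 39.0.

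The core of URS1 is shown for genes that carry it, since it is the element through which Ume6 acts. Each line is a window of 30 bases from the R64 RefSeq reference genome, which is not the W303 strain, read 5′ to 3′ on the strand of the gene, with the motif GCCGCC or its reverse complement GGCGGC in capitals.
HOP2, chrVII:435484-435513, plus strand: gattatgtcctcGGCGGCtaaattttccat
MEK1, chrXV:996628-996657, minus strand: cggctaaatttcGGCGGCtatttcattcat
DMC1, chrV:548271-548300, plus strand: gaccggaaaataGCCGCCcaaggataaact
HED1, chrIV:477717-477746, plus strand: tttattaagataGCCGCCcaggttaaattc
SAE3, chrVIII:262645-262674, minus strand: gttctgcctaatGGCGGCtattctatttct
YDR374C, chrIV:1224606-1224635, minus strand: acgatgtacctcGGCGGCtaatctttttgg
INO1, chrX:136062-136091, minus strand: cacctctgcgttGGCGGCaatgttaatttg

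The motif was searched on both strands from 250 bases before to 50 bases after the start codon of the 5708 counted genes that have an R64 entry. It was present in 280 of them (4.91%). Among genes at least 2-fold higher in the double deletion it was in 26 of 140 (18.6%), and among genes at least 2-fold lower in 8 of 136 (5.88%). In the early meiotic list it was in 22 of 36 (61.1%). That list holds genes known for control by Ume6, so a high share there is not an independent result. A match is a description of the letters and does not show that Ume6 binds there.

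The deposited table has its own yes or no entry for a motif that it does not name. Of 226 counted genes with that entry, 18 were at least 2-fold higher (7.96%) and 5 lower (2.21%), against 138 (2.30%) and 157 (2.62%) of the 5988 genes without it. The median difference was 0.15 in genes with the entry and 0.14 in genes without it. The higher motif genes were mostly early meiotic: 11 of the 24 motif genes in the meiotic list were at least 2-fold higher, and 7 of the other 202. Those 7 were *INO1*, *YDR374C*, *COS7*, *COS5*, *COS1*, *YIR042C* and *YOL131W*. Of the 18 higher motif genes, 17 were also at least 2-fold higher in *ume6* against wild type, a comparison that uses neither column of this one and in which 9.94% of all genes were that much higher. Of the 135 higher genes without the entry that have a value there, 34 were. Of 160 genes at least 2-fold lower in the double deletion, 29 were also that much higher in *ume6* (18.1%). The share among all motif genes is not given here. A higher level in *ume6* was not confined to the higher motif genes. Of the 5 lower ones, *CRC1*, the mitochondrial carnitine carrier, was at 9.74 FPKM in wild type and 47.2 in *ume6*. *PST1* was at 394 and 1564 FPKM, and *YPL014W* at 20.1 and 88.0. *RIP1*, a subunit of the respiratory chain, was at 265 and 292 FPKM, and *YOL103W-A* at 190 and 36.3.

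**Figure D3:**
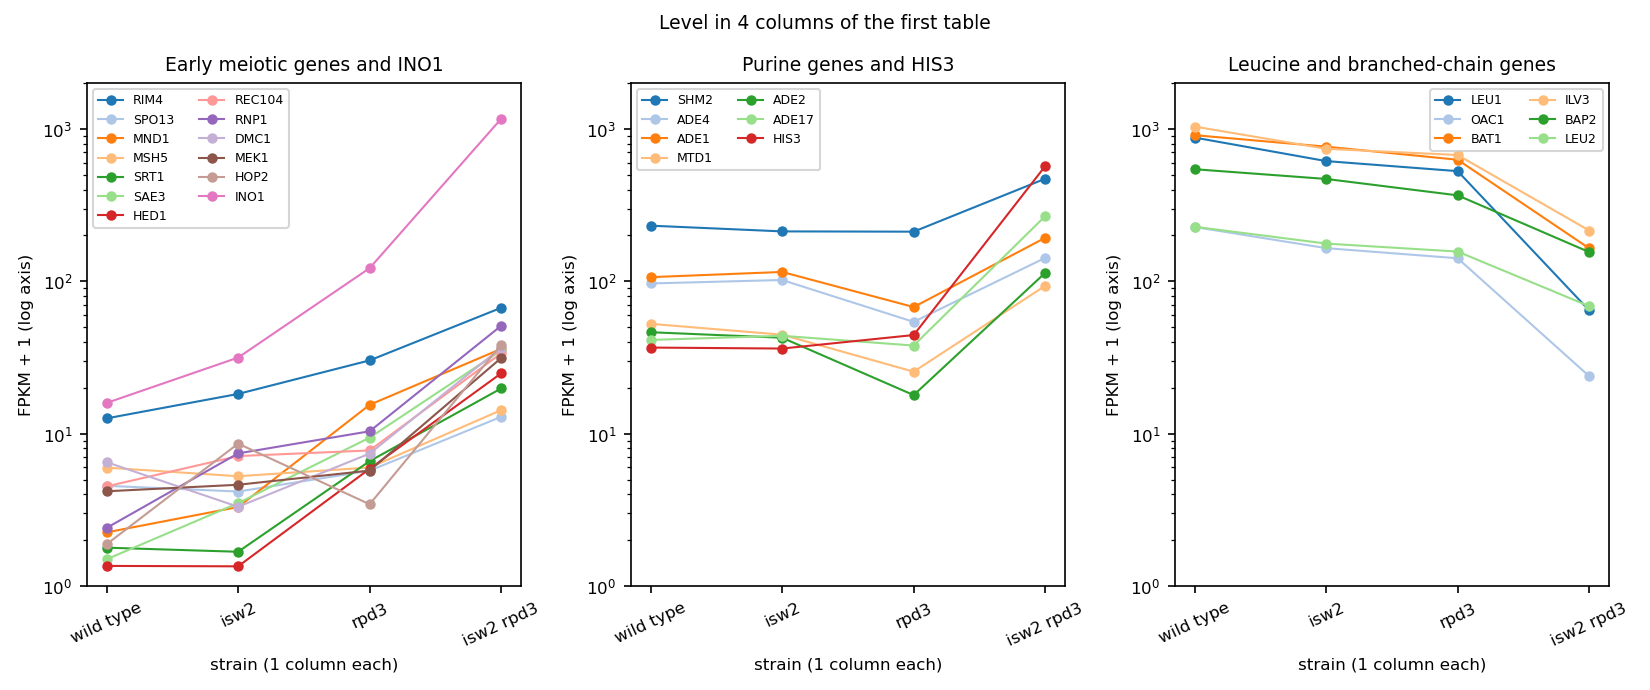
Level (FPKM + 1, log axis) of single genes in wild type, *isw2*, *rpd3* and the double deletion, 1 column each; a line joins the values of a gene. In all 3 panels the double deletion is the extreme column, highest for the early meiotic genes, *INO1*, the purine genes and *HIS3*, and lowest for the leucine and branched-chain genes.

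Purine synthesis genes stood higher in the double deletion. Of 20 counted genes of purine synthesis, 6 were at least 2-fold higher and none lower, 17 lay above 0, and the median was 0.67 (0.69 after quantile normalisation), where columns that share a label gave that median a standard deviation of 0.12. *ADE17*, which catalyses the last steps of the pathway, stood at 40.2 FPKM in wild type, 42.9 in *isw2*, 36.9 in *rpd3* and 267 in the double deletion. It rose by 2.82 ± 0.35 (SE; limma adjusted p = 0.0170). *ADE2* was at 45.3, 41.6, 16.9 and 113 FPKM and rose by 2.67 ± 0.34 (SE; limma adjusted p = 0.0215). Here the double deletion was the high column and *rpd3* the low one. *GCV1*, of the glycine cleavage system that feeds one-carbon units, is not on the purine list. It was at 20.4, 41.3, 12.3 and 86.6 FPKM and rose by 2.72 ± 0.36 (SE; limma adjusted p = 0.0222).

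The other purine list genes at least 2-fold higher did not pass the test. *MTD1*, a folate dehydrogenase gene, was at 51.6 FPKM in wild type, 43.6 in *isw2*, 24.5 in *rpd3* and 92.4 in the double deletion. *ADE1* was at 105, 114, 66.7 and 192 FPKM (difference 1.51, limma adjusted p = 0.129). *ADE4*, the first enzyme of the pathway, was at 95.7, 101, 53.1 and 141 FPKM, and *SHM2*, a serine hydroxymethyltransferase gene, at 231, 211, 211 and 470. In *SHM2* the 3 strains other than the double deletion lay close together.

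Purine genes are known targets of the activators Bas1 and Gcn4, whose sites share the letters TGACTC. The windows below are from the R64 reference, on the strand of the gene, with that motif in capitals.
ADE17, chrXIII:509440-509469, minus strand: ccagaaatgaatTGACTCctctcataactt
ADE2, chrXV:566370-566399, minus strand: tatgctgacaaaTGACTCttgttgcatggc
ADE2, chrXV:566327-566356, minus strand: atactaagtgatTGACTCttgctgaccttt
GCV1, chrIV:485491-485520, minus strand: gctcaggagcccTGACTCgtgttgcctcga
The motif, on either strand, was in the promoter window of 469 of the 5708 genes (8.22%), of 10 of the 20 purine genes, of 8 of the 14 leucine and branched-chain genes, of 23 of 140 genes at least 2-fold higher (16.4%) and of 17 of 136 at least 2-fold lower (12.5%).

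*HIS3*, an enzyme of histidine synthesis and a common marker gene of laboratory yeast, had the smallest adjusted p of the comparison. It stood at 35.7 FPKM in wild type, 35.2 in *isw2*, 43.4 in *rpd3* and 569 in the double deletion, and rose by 3.68 ± 0.28 (SE; limma adjusted p = 0.00504). *YOR203W*, the ID numbered next after *HIS3*, was at 4.96, 4.83, 5.15 and 76.9 FPKM and rose by 3.66 ± 0.41 (SE; limma adjusted p = 0.0134). *YOR203W* has no entry in the R64 table, and whether it shares reads with *HIS3* was not tested. The annotated neighbours stayed near their *rpd3* level: *MRM1* went from 34.7 FPKM in *rpd3* to 43.5, and *DED1* from 644 to 621. Among the other 6 counted histidine genes none was 2-fold apart.

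Laboratory W303 strains commonly carry mutant alleles of *ADE2*, *HIS3*, *LEU2*, *TRP1* and *URA3*, and the way in which the double deletion was made prototrophic is not given in the sources used here. *TRP1* went from 13.5 FPKM in *rpd3* to 27.0 in the double deletion (difference 0.95), *URA3* from 70.8 to 106 (0.58), and *LEU2* from 156 to 67.6 (-1.19). None of these 3 passed the test. The part of prototrophy in the differences of *HIS3*, *ADE2* and the pathways they belong to was not tested.

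Leucine and branched-chain genes stood lower in the double deletion. Of 14 counted genes, 6 were at least 2-fold lower and none higher, 13 lay below 0, and the median was -0.79 (-0.67 after quantile normalisation), with a standard deviation of 0.20 between columns that share a label. *LEU1*, the isopropylmalate isomerase of leucine synthesis, stood at 876 FPKM in wild type, 614 in *isw2*, 527 in *rpd3* and 63.3 in the double deletion. It fell by 3.04 ± 0.30 on the log2 scale (SE; limma adjusted p = 0.0133). *BAT1*, the mitochondrial branched-chain aminotransferase, was at 908, 763, 626 and 163 FPKM and fell by 1.93 ± 0.29 (SE; limma adjusted p = 0.0366). *OAC1*, a mitochondrial carrier that exports isopropylmalate, was at 226, 164, 141 and 22.8 FPKM (difference -2.57, limma adjusted p = 0.126), and *ILV3* was at 1035, 739, 673 and 214 (difference -1.65, limma adjusted p = 0.110). *LEU3*, the activator of this pathway, differed by 0.27.

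Leu3 is known to bind inverted CCG and CGG triplets 4 bases apart. This motif was added after the lower leucine genes had been seen. The windows are from the R64 reference, on the strand of the gene, with the motif in capitals.
LEU1, chrVII:478850-478879, minus strand: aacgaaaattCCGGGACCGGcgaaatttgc
LEU1, chrVII:478820-478849, minus strand: ccggttttgtCCGTAACCGGcttcatgagt
BAT1, chrVIII:517375-517404, plus strand: attgtgtttgCCGGTACCGGcctttaagct
This pattern, with any 4 bases between the triplets, was in the window of 83 of 5708 genes (1.45%), 3 of the 14 leucine and branched-chain genes, 7 of 136 genes at least 2-fold lower (5.15%) and 0 of 140 at least 2-fold higher.

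Lists for other amino acids differed among themselves, and the 7 counted histidine genes had a median of 0.55. *DIP5*, the permease for glutamate and aspartate, stood at 300.04 FPKM in wild type, 212 in *isw2*, 179 in *rpd3* and 17.4 in the double deletion, and it fell by 3.29 ± 0.49 (SE; limma adjusted p = 0.0366). Of 23 amino acid permease genes 4 were at least 2-fold lower and none higher, with a median of -0.66. Of 22 genes of sulfur and methionine metabolism 5 were lower and none higher, with a median of -0.72. Between columns that share a label, the medians of these lists had a standard deviation of 0.35 and 0.39. Both medians thus lay less than 2 such deviations from 0, though further from the 0.14 over all genes. After quantile normalisation they were -0.76 and -0.72, beside 0.02 over all genes. *MET14*, the adenylylsulfate kinase, was at 130 FPKM in wild type, 145 in *isw2*, 60.7 in *rpd3* and 21.0 in the double deletion. Of 18 arginine and lysine genes 4 were at least 2-fold lower, among them *ARG3*, with 31.5 FPKM in *rpd3* against 6.71 in the double deletion, but the median of the list was -0.09, with 8 genes above 0 and 10 below. None of the 13 tryptophan and aromatic genes was 2-fold apart, and their median was -0.13 (0.04 after quantile normalisation).

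*CPA1*, a subunit of the carbamoyl phosphate synthetase of arginine synthesis, is also the neighbour of the deleted *ISW2*. It stood at 244 FPKM in wild type, 225 in *isw2*, 283 in *rpd3* and 72.7 in the double deletion (difference -1.95, limma adjusted p = 0.385). *YOR302W*, the regulatory reading frame upstream of *CPA1*, was at 331, 265, 537 and 102 FPKM. In both genes the *isw2* single deletion lay nearer to wild type than the double deletion did. An effect of the *ISW2* deletion on its neighbours was not tested.

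*PRM7* and *BSC1*, which lie side by side, had the lowest levels relative to *rpd3* after *ISW2*. Their levels ran in the same order over the 4 columns, and whether their calls are independent of each other was not tested. *BSC1* stood at 130 FPKM in wild type, 99.2 in *isw2*, 60.0 in *rpd3* and 2.46 in the double deletion, and it fell by 4.14 ± 0.44 (SE; limma adjusted p = 0.0133). *PRM7*, a pheromone-regulated gene, was at 92.0, 71.1, 41.6 and 2.57 FPKM and fell by 3.58 ± 0.39 (SE; limma adjusted p = 0.0134). Their neighbours *NAT1*, with 41.7 FPKM in *rpd3* against 83.6 in the double deletion, and *PUS9*, with 16.3 against 17.7, were not low.

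The a-specific genes of the mating system were also lower, without a call. Of 7, 3 were at least 2-fold lower, beside 2.61% of all genes. The median of the 7 was -0.64, with a standard deviation of 0.27 between columns that share a label. *MFA1* was at 360 FPKM in wild type, 218 in *isw2*, 77.8 in *rpd3* and 19.4 in the double deletion, and *MFA2* was at 584, 666, 348 and 108. *BAR1*, the protease that degrades alpha-factor, was at 78.1, 86.5, 46.6 and 13.6 FPKM (difference -1.70, limma adjusted p = 0.101). In all 3 genes *rpd3* lay below wild type and the double deletion below *rpd3*.

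Respiratory chain genes were lower as well: 9 of 37 at least 2-fold, none higher, 33 below 0, with a median of -0.59 that quantile normalisation did not move (-0.59). *CYC1*, cytochrome c, stood at 431 FPKM in wild type, 431 in *isw2*, 301 in *rpd3* and 76.4 in the double deletion (difference -1.96, limma adjusted p = 0.172). Between columns that share a label the median had a standard deviation of 0.25. *SDH1*, a succinate dehydrogenase subunit, was at 104, 98.3, 174 and 63.3 FPKM. No gene of the list passed the test. *GPD2*, of glycerol synthesis, was the remaining gene that fell, from 223 FPKM in *rpd3* to 52.8 in the double deletion, by 2.06 ± 0.32 (SE; limma adjusted p = 0.0434).

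Heat shock genes included calls and large differences without one. *SSA4*, an inducible Hsp70, stood at 13.2 FPKM in wild type, 14.5 in *isw2*, 10.7 in *rpd3* and 65.1 in the double deletion, and rose by 2.49 ± 0.40 (SE; limma adjusted p = 0.0494). *SSA3*, its relative, was at 18.1, 20.8, 16.3 and 71.6 FPKM and rose by 2.07 ± 0.29 (SE; limma adjusted p = 0.0316). *HSP12*, a small membrane heat shock protein, had the largest difference upward, from 21.4 FPKM in *rpd3* to 291 in the double deletion (3.71, limma adjusted p = 0.204). Wild type and *isw2* had 49.2 and 51.8 FPKM of it. *YGP1*, a secreted stress protein, went the other way, from 277 to 51.9 FPKM. Over the 43 genes of the stress list 6 were at least 2-fold higher and 1 lower, and the median of 0.24 was small beside the standard deviation of 0.85 of the same median between columns that share a label.

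The subtelomeric COS genes differed in another manner, since it was *rpd3* that stood apart. *COS7* was at 10.3 FPKM in wild type, 14.0 in *isw2*, 0.219 in *rpd3* and 10.6 in the double deletion, and rose by 3.26 ± 0.34 (SE; limma adjusted p = 0.0133). *COS5* was at 15.2, 18.5, 0.984 and 13.0 FPKM and rose by 2.82 ± 0.37 (SE; limma adjusted p = 0.0222). *COS1*, at 24.6, 27.8, 0.440 and 8.99 FPKM, rose by 2.79 ± 0.36 (SE; limma adjusted p = 0.0222). The double deletion was near or below the level of wild type in all 3. Of 8 counted COS genes 4 were at least 2-fold higher. They are near-identical copies, so reads may have been split among them, and the values are uncertain. *BNA4*, of NAD synthesis, also had *rpd3* as its low column, with 31.6 FPKM in wild type, 52.9 in *isw2*, 5.84 in *rpd3* and 35.0 in the double deletion, and rose by 2.40 ± 0.35 (SE; limma adjusted p = 0.0366).

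This distinction was counted over all higher genes. Of 155 with a value in the 4 columns, 50 had the double deletion above both wild type and *isw2* while *rpd3* was not below both, as in *MEK1*. In 46 *rpd3* was below both while the double deletion was not above both, as in *COS7*, and in 59 both held, as in *ADE2*. Of the 162 lower genes, 97 had only the double deletion below wild type and *isw2*, 13 had only *rpd3* above them, 50 had both and 2 neither. The levels that make up these counts share the columns of the comparison and are a description.

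Large sets of growth genes held no gene that passed the test. Of 60 ribosome biogenesis genes 58 lay above 0, with a median of 0.55 (0.46 after quantile normalisation), yet that median had a standard deviation of 0.63 between columns that share a label. Of 66 mitochondrial ribosomal protein genes 62 lay above 0, with a median of 0.35 (0.16 after quantile normalisation) and such a standard deviation of 0.23. For the 137 genes of cytosolic ribosomal proteins the median was -0.30, with such a standard deviation of 0.14. It became 0.05 after quantile normalisation, and the mean abundance of these genes had a median of 2133 FPKM. The median of 23 glycolysis and fermentation genes, -0.35, likewise became 0 after quantile normalisation, and its standard deviation between such columns was 0.48.

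**Figure D4:**
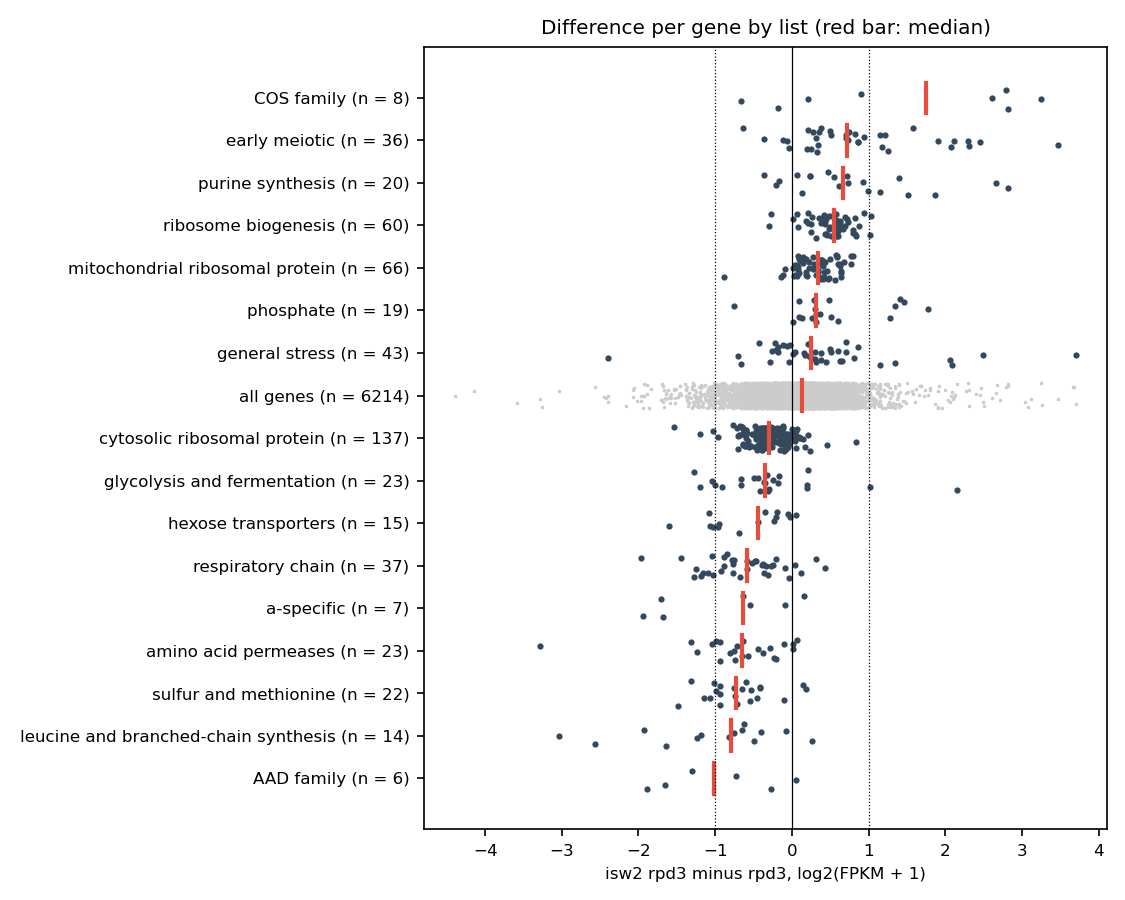
Difference of each gene between the double deletion and *rpd3* (horizontal axis, log2(FPKM + 1)) for 16 gene lists and for all 6214 genes, with red bars at the medians and dotted lines at 2-fold. The medians run from 1.76 in the COS genes, through 0.14 over all genes, to -0.79 in the leucine and branched-chain genes and -1.02 in the AAD genes.

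The effect of Isw2 loss in cells that keep Rpd3 is given by the *isw2* deletion against wild type, which shares no column with the comparison above. There 56 of 6315 genes were at least 2-fold higher (0.887%) and 31 lower (0.491%). Of the 150 genes higher in the double deletion that have a value there, 19 were at least 2-fold higher in *isw2* as well (12.7% of these 150) and none lower. Of the 160 lower genes, 6 were lower in *isw2* (3.75%), *ISW2* among them, and 1 was higher. Across the 6178 genes counted in both comparisons the differences had Pearson's r = 0.34 and Spearman's rho = 0.26. Genes are not independent replicates, and these are descriptions.

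The 19 genes higher on Isw2 loss in both backgrounds include *HOP2*, *SAE3*, *RNP1* and *YDR374C*, described above. *GPM2*, a homologue of phosphoglycerate mutase, stood at 2.99 FPKM in wild type, 26.5 in *isw2*, 1.30 in *rpd3* and 18.5 in the double deletion, and it rose by 3.08 ± 0.41 in cells without Rpd3 (SE; limma adjusted p = 0.0222). *YIL014C-A*, of unknown function, was at 10.5, 47.4, 0.751 and 14.2 FPKM and rose by 3.12 ± 0.37 (SE; limma adjusted p = 0.0137). Both were high in each strain without Isw2 relative to its partner with Isw2. In *isw2* against wild type, neither passed the limma test, nor did *HOP2*, *RNP1* or *YDR374C*. *ITC1*, the partner of Isw2, was at 19.1 FPKM in wild type, 43.0 in *isw2*, 19.4 in *rpd3* and 44.3 in the double deletion. Its differences of 1.13 and 1.15 were nearly equal, and limma called it in neither comparison. After quantile normalisation its difference from *rpd3* was 0.97. *HUG1*, of the DNA damage response, was at 20.3, 112.9, 4.19 and 18.6 FPKM. *SHC1*, a sporulation-specific activator of chitin synthase, was at 4.67, 34.2, 52.0 and 155 FPKM.

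Whether the change on Isw2 loss differed between cells without and with Rpd3 was tested as an interaction in the limma fit. No gene of 6241 passed (0%), and 107 had an unadjusted p under 0.05. *HIS3* came nearest, with an interaction of 3.70 ± 0.40 (SE; limma adjusted p = 0.0726), followed by *YOR203W*, *BSC1*, *COS7*, *LEU1*, *PRM7* and *ADE2*, each at an adjusted p of 0.320. The interaction of *DMC1* was 3.28 (limma adjusted p = 0.589). No gene was thus shown to respond to Isw2 loss in the absence of Rpd3 alone, and a p above the threshold does not show that the responses were equal. The part of prototrophy in these interactions was not tested.

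**Figure D5:**
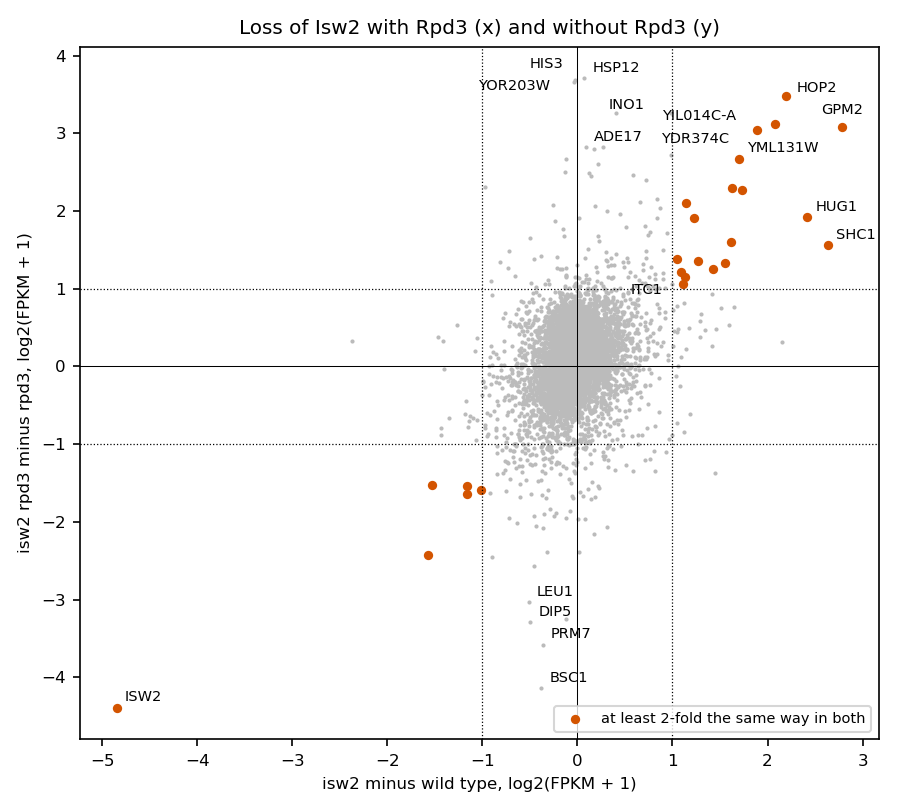
Difference on loss of Isw2 in cells with Rpd3 (horizontal axis, *isw2* minus wild type) and without Rpd3 (vertical axis, double deletion minus *rpd3*), both in log2(FPKM + 1), for genes counted in both. Orange points are the 25 genes at least 2-fold apart the same way in both, and dotted lines mark 2-fold. *HIS3*, *ADE17* and *LEU1* lie near 0 on the horizontal axis, *HOP2* and *GPM2* far up on both.

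The remaining genes that rose were *POT1*, the peroxisomal thiolase, from 4.74 FPKM in *rpd3* to 30.7 in the double deletion (2.46 ± 0.35 SE; limma adjusted p = 0.0316), and *YOR389W*, of unknown function, from 6.69 to 25.9 (1.81 ± 0.29 SE; limma adjusted p = 0.04998). *YOR389W* lay just inside the threshold. At the 2-fold line itself, *YJL150W* was just inside on the upper side with a difference of 1.00, and *PCD1* just outside with 0.998.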

How the data were processed

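The authors deposited gene-level abundances, as 8 columns of log2 FPKM in a first table and as 7 workbook sheets whose headers say log2 FPKM. In 1 sheet, of *ume6*, the authors' values were read as log10 FPKM, since only then does their sum over genes lie near that of the other sheets. Cufflinks 2.2.1, Cuffdiff, TopHat2, SAMtools and CASAVA are named, without roles, per the submitters' processing notes. Neither the build and annotation nor the use of strand in counting is given in the sources used here, so overlapping antisense genes may share reads. All value columns were mapped to groups, and 0 were left unused. The wild type column stands for 2 labelled isolates and is the authors' value. NA was treated as missing, and depth is unknown.

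All values were converted to FPKM and differences taken in log2(FPKM + 1), which understates the fold of low genes. Counts past 2-fold used genes with a mean of at least 1 FPKM. limma 3.58.1 in R 4.3.3 was fitted with an abundance trend, with group and deposited table as terms (4 residual degrees of freedom). Genes with a value in every column and at least 1 FPKM in 2 columns were used. The fit was also run on simulated data with the same spread in every column. That run cannot show that the single columns share this spread. The standard deviation of a list's median came from the 5 pairs of columns with the same label. It was taken around the mean of the 5, so a shift shared by the pairs is not in it and the spread may be understated. Alternatives were another pseudocount, filter, scaling or threshold, the fit without the table term or the trend, and each column of a paired group left out. Motifs were searched in the R64 reference, for 5995 of the 6648 genes.

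The rule for named genes took the 15 highest and 15 lowest differences at a mean of at least 5 FPKM, up to 10 limma calls in each direction, the 5 largest interactions in each direction, the 4 largest differences of each list, and all deleted and marker genes. Other genes, among them the remaining limma calls, the genes at least 2-fold apart in both backgrounds, neighbours of named genes and further list members, were named after their values were seen. The members and the 41 gene lists were chosen with earlier results of these data known.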

Additional observations from a re-analysis of the deposited data

How the results depend on the processing

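The count of genes at least 2-fold apart, 318 (156 higher, 162 lower), became 188 with a pseudocount of 5 (87 and 101) and 50 at a 4-fold threshold. With a pseudocount of 0.1 it was 411 (193 and 218), with no filter 321, and with a minimum mean of 5 FPKM 264. Kept to the genes of the limma fit, an alternative chosen after seeing the data, it was 304. Scaling changed the split of the calls, from 49.1% higher as deposited to 38.6% after quantile normalisation (119 higher, 189 lower) and 30.1% after median centring (110 and 255). The count of limma calls, 26, fell to 13 with a pseudocount of 5, to 6 after quantile normalisation (2 higher, 4 lower) and to 12 after median centring (8 and 4). It was 30 with a pseudocount of 0.1, 24 with no filter, 23 without the table term and 29 without the trend. Leaving out 1 column of a paired group gave 11 to 27 calls. It was 11 without either column of *ume6* with Chd1-Ume6, 14 without either *ume6* column, 19 without either wild type or either *rrp6* column that carries the fusion, and 27 without either *rrp6* column. The interaction, called at no gene, had 2 calls with a pseudocount of 5, *HIS3* (3.59) and *YOR203W* (3.03), both at a limma adjusted p of 0.0334, and none under the other alternatives. The causes of these changes were not tested. No named gene or list median changed sign past its threshold under the pseudocounts or quantile normalisation, but the small medians of the cytosolic ribosomal protein, tryptophan, alpha-specific and haploid lists crossed 0 after quantile normalisation. No paired analysis was possible because the compared groups share only isolate number 1, with 1 column each. Depth could not be judged from FPKM.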

Other observations

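The lists described here had no limma call. Of 19 phosphate genes 5 were at least 2-fold higher and none lower, with a median of 0.32 beside 0.14 over all genes, and that median had a standard deviation of 0.31 between columns that share a label. *PHM6*, of polyphosphate metabolism, stood at 47.8 FPKM in wild type, 43.0 in *isw2*, 9.77 in *rpd3* and 35.7 in the double deletion. *PHO89*, a phosphate transporter gene, was at 410, 508, 41.4 and 107 FPKM. Here, as in the COS genes, *rpd3* was the low column of the 4. Of 14 thiamine and pyridoxine genes 4 were at least 2-fold higher (28.6%, beside 2.51% of all genes) and none lower. The median of the 14 was 0.33, with a standard deviation of 0.18 between columns that share a label. Among the 4 was *SNZ1*, of vitamin B6 synthesis, with 33.9 FPKM in *rpd3* against 139 in the double deletion.

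Of 15 hexose transporter genes 4 were at least 2-fold lower (26.7%, beside 2.61% of all genes) and none higher. The median of the 15 was -0.44, with a standard deviation of 0.14 between columns that share a label. *HXT1*, the low-affinity glucose transporter, was at 226 FPKM in wild type, 134 in *isw2*, 56.9 in *rpd3* and 18.0 in the double deletion. *SUC2*, the invertase, was at 65.5, 34.7, 39.7 and 6.43 FPKM (difference -2.45, limma adjusted p = 0.427). Of 6 counted AAD genes 3 were lower. These are putative aryl-alcohol dehydrogenases so alike that reads may have been split among them. The median of the 6 was -1.02 (-1.19 after quantile normalisation), with a standard deviation of 0.19 between columns that share a label. *AAD4* had 29.2 FPKM in *rpd3* against 7.13 in the double deletion. The motifs CACGTG, read by the sulfur activator Cbf1, and AGGGG, the core of the stress element, were searched in the same promoter windows. CACGTG was in 171 of 5708 counted genes (2.996%), 1 of 140 at least 2-fold higher (0.714%), 5 of 136 at least 2-fold lower (3.68%) and 5 of the 22 sulfur and methionine genes. AGGGG was in 1252 of 5708 (21.9%), 21 of 140 higher (15%), 35 of 136 lower (25.7%) and 27 of the 43 stress genes.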
